A study of Mus musculus with 8 samples.

Results

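The 39 genes described here encode structural proteins of the muscle sarcomere, with the thin filament and its troponins most fully represented, and 3 companions: desmin, the muscle creatine kinase and the RNA-binding protein Rbm24. They were listed by name, and all 39 were found among the 21887 protein-coding genes on assembled mouse chromosomes. H3K27ac, an acetylated histone H3 carried by active promoters and enhancers, had been mapped in muscle stem cells (satellite cells) of C57BL/6 mice. The first condition, FISC, is satellite cells taken fresh from skeletal muscle that had no treatment. The other, ASC, is activated satellite cells from skeletal muscle 2.5 days after an injury by barium chloride (BaCl2). Each condition had 2 H3K27ac libraries and 2 inputs, and what was analysed is 1 deposited peak list for each H3K27ac library. No transgene, Cre line or mutation is named for any animal, and the labels do not give age, the muscle taken or the sort. How the cells of each condition were purified is not given in the sources used here. Nothing in the labels says that the replicates came from separate mice, so p-values measure only the spread between these libraries, which may be technical.

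A sarcomere is the contractile unit of striated muscle, in which thin filaments of actin slide along thick filaments of myosin. Tropomyosin and the 3 troponin subunits lie along actin and make contraction depend on calcium, Z discs anchor the thin filaments, M bands crosslink the thick ones, and titin spans from Z disc to M band. Most of these proteins exist in fast, slow and developmental or cardiac isoforms from separate genes, and in muscle they are switched on as myoblasts differentiate and fuse, while resting satellite cells are not contractile.

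What was compared is breadth, the kb of DNA under peaks. It was taken in 3 places for each gene: within 2 kb of either gene end (end windows), in the rest of the gene (body), and outside the end windows out to 50 kb from the gene (flank). Positions are mm10. Where 2 values are given for a condition they are replicates 1 and 2 in that order. A difference is ASC minus FISC with its standard error (SE) from limma. It was called where the Benjamini-Hochberg adjusted p over all genes tested was below 0.05. Genes covered in 2 or more libraries were tested, so a gene at 0 in both libraries of a condition entered only through the other condition. Such a gene had no spread in the condition at 0. Its call says little more than that peaks were listed in the other condition alone.

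Promoter sequences are shown first, because these genes differed in whether their starts were acetylated in ASC alone, in both conditions or in neither. The sequences are RefSeq promoter windows on GRCm38.p6, from 250 bases before to 50 after the start, and 31 of the 39 genes had at least 1 entry (37 promoters). Each is written 5′ to 3′ on the strand of its gene. Capitals mark matches, on either strand and allowed to overlap, to the E boxes CAGCTG and CACCTG, the TATA box TATAAA, the MCAT element CATTCC, the MEF2 site and the CArG box. The first pair, Ttn (chr2:76982498-76982797, minus strand) and Nrap (chr19:56389989-56390288, minus strand), were the promoters under a peak in both ASC lists and in no FISC list. Mybph (chr1:134193198-134193497, plus strand) and Acta1 (chr8:123894726-123895025, minus strand) were under a peak in ASC replicate 2 alone. Tpm2 (chr4:43523505-43523804, minus strand) was under a peak in all 4 libraries. Ckm (chr7:19410844-19411143, plus strand) and Actc1 (chr2:114052826-114053125, minus strand) were under none.
Ttn: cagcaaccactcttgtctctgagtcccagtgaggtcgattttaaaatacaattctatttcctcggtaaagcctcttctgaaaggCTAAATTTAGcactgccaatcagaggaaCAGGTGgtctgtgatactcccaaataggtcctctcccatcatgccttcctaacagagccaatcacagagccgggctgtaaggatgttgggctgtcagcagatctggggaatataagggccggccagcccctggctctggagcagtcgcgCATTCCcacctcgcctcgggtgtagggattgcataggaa
Nrap: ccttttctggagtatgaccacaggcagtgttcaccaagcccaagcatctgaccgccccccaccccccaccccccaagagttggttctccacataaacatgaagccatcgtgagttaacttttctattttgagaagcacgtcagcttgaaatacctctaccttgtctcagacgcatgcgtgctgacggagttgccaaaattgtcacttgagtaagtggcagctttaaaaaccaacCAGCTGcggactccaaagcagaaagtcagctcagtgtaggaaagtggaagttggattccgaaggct
Mybph: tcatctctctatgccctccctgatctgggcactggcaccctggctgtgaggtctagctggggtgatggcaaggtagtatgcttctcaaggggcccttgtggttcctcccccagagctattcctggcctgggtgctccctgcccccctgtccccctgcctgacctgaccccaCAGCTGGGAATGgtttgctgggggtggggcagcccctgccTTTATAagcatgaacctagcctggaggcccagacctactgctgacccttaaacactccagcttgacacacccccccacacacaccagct
Acta1: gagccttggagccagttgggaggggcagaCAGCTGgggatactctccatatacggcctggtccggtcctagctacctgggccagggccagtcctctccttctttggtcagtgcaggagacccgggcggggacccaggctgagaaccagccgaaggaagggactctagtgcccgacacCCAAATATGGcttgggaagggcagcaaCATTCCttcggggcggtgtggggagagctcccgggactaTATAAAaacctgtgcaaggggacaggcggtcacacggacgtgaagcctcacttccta
Tpm2: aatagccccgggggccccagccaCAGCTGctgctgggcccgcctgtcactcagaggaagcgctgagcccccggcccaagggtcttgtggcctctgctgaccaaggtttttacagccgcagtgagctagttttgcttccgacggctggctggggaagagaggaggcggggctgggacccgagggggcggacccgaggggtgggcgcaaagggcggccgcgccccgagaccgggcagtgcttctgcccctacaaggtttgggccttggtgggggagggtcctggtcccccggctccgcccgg
Ckm: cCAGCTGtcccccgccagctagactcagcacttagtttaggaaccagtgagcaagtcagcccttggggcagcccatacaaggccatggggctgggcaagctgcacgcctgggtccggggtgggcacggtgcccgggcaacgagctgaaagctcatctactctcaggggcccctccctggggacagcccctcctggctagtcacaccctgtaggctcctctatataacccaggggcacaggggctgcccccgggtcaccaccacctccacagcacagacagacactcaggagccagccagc
Actc1: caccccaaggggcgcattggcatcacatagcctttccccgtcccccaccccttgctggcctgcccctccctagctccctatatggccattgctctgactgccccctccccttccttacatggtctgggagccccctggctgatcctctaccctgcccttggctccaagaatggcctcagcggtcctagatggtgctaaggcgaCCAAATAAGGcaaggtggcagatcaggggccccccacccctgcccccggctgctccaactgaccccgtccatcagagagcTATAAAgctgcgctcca

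Of the 37 promoters, 24 (64.9%) lay under no peak in any library, against 43.8% of the 21263 promoters of protein-coding genes. Those covered in all 4 libraries numbered 6 (16.2%, against 45.9%), at Des, Mybpc1, Myl4, Rbm24, Tpm1 and Tpm2. The 2 covered in ASC alone made 5.41% of the 37, against 2.41% of all promoters, and 0 were covered in FISC alone, against 0.865%. CAGCTG, the E box bound by myogenic factors such as MyoD, was in 17 of the 37 windows (45.95%) and in 15.56% of all promoters. CACCTG was in 29.73% against 19.72%, CATTCC in 24.32% against 13.58%, the MEF2 site in 8.11% against 2.74%, and TATAAA in 16.22% against 12.6%. The CArG box, bound by serum response factor, was in 6 windows (16.22%) at Acta1, Actc1, Ldb3, Myl3 and Myom1, against 1.52% of all promoters. A CAGCTG match began 16 bases before the start of Nrap, 79 before that of Mybph, 221 before that of Acta1, 227 before that of Tpm2 and 249 before that of Ckm, so promoters covered in ASC alone, in all libraries and in none held a match. These matches describe the sequence and say nothing of what was bound.

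The ASC peak lists covered more of the genome, 53.4 ± 6.03 Mb against 34.0 ± 0.44 Mb (mean ± SD, n = 2; ratio 1.57; exact 2-sided permutation test, p = 0.333, the smallest that 2 against 2 libraries allow). Peaks numbered 43092 to 54700 in a library. Read totals are not in the lists, and backgrounds solved from the fold and p of 3000 peaks in each library were 2.33 to 2.86 reads, with ASC replicate 1 the lowest. The median tested gene was higher in ASC by 0.30 kb in end windows, 0.53 kb in bodies and 0.96 kb in flanks. Divided by each library's covered length, these medians became -0.35, 0.16 and -0.26 kb, so each difference is read against the background of all genes. All 8 satellite cell markers were covered in end windows in FISC and 7 in ASC, where Calcr was at 0. Among them was Pax7 at 2.83 and 2.84 kb in ASC and 3.45 and 3.08 kb in FISC, with Itga7 and Vcam1 broader and Calcr and Chodl narrower in ASC.

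In end windows, 13 of the 39 genes (33.3%) were broader in ASC by the test and 2 were narrower. The background was 15.6% of all 21887 protein-coding genes for broader and 2.13% for narrower. Among the 12924 genes tested it was 26.5% and 3.61%, against 13 and 2 of the 22 members tested. Of the other genes, 7 were tested without a call, 3 were covered in 1 library and 14 in none (35.9%, against 38.0% of all genes). Without a test, the ASC values lay above the FISC values with no overlap at 14 of the 39, against 36.7% of all genes, and below at 5, against 6.47%. Dividing by covered length gave 9 broader (Ttn, Tpm2, Lmod3, Tnnt2, Tnni2, Myl1, Mybph, Xirp1 and Nrap) and 7 narrower, against 5.43% and 21.6% of all genes, and cutting all lists to equal covered length gave 5 and 7, against 8.72% and 7.22%. Over these 3 scales the share of broader genes among all genome-wide calls was 87.98%, 20.06% and 54.7%. Of the calls on the main scale, Ttn, Lmod3, Tnnt2, Myl1, Mybph and Nrap were at 0 in both FISC libraries, and Lmod2 and Mybpc2 in both ASC libraries. Each of these entered the test only through 1 condition and leaves it when a library of that condition is dropped. With each library left out in turn, fewer ends were called in either direction. Those fits have no background over all genes here. Fewer cells with acetylation at a gene and less of it in each cell cannot be told apart in these bulk libraries.

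**Figure D1:**
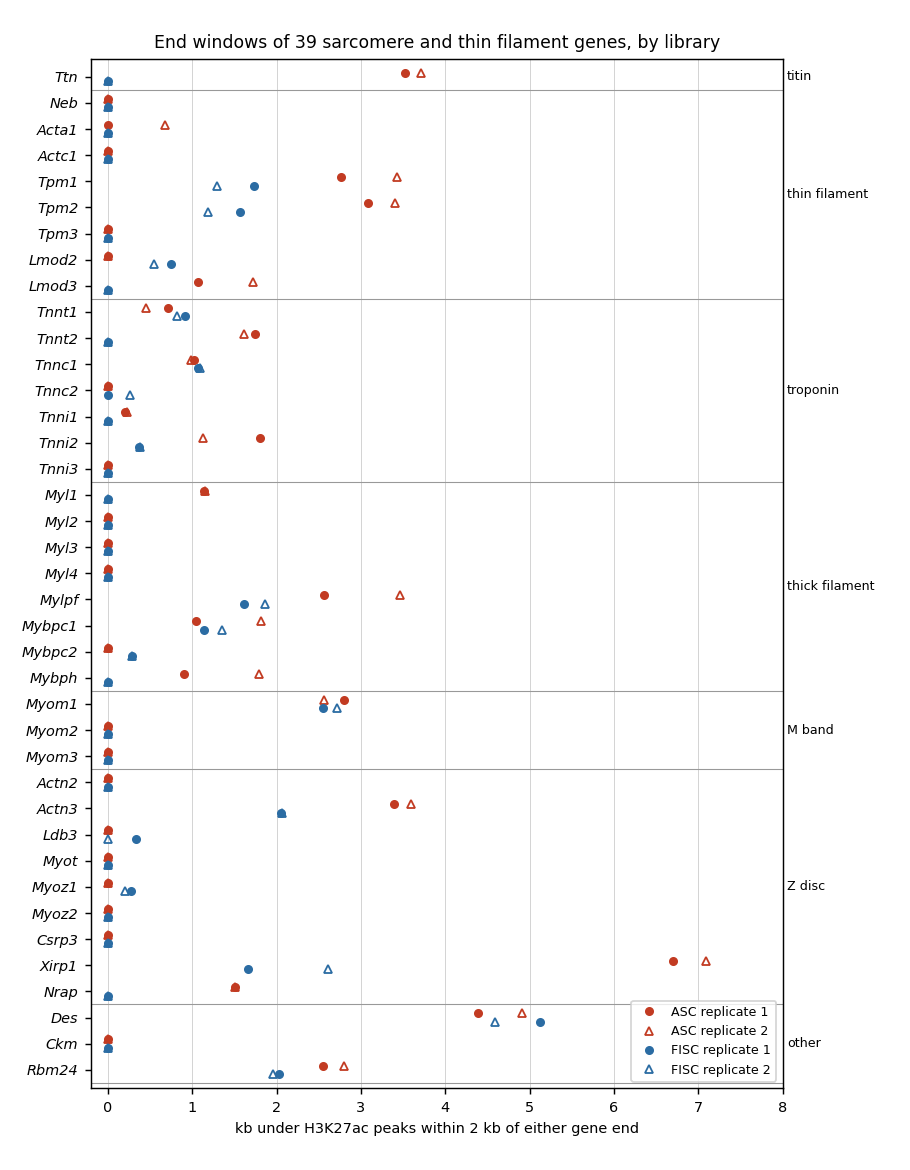
The kb under H3K27ac peaks within 2 kb of either gene end is plotted on the horizontal axis for each of the 39 genes, grouped by place in the sarcomere, with 1 point for each library (red ASC, blue FISC, filled circle replicate 1, open triangle replicate 2). Ttn, Tnnt2, Myl1 and Nrap have both ASC points away from 0 and both FISC points at 0, while 14 genes have all 4 points at 0.

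Titin, the giant spring protein of the half-sarcomere, went from no peak to a broad one at its start. Its end windows held 3.53 and 3.71 kb in the ASC libraries and 0 in either FISC library. The difference was 3.62 kb (SE 0.14, adjusted p = 0.00194), and the groups did not overlap. Nearly all of it was 1 region, chr2:76980564-76983955, that spans the start and covered 3316 and 3369 bases in ASC with fold enrichments of 17.4 and 17.6. The body, 275 kb long, held 0.20 kb in ASC replicate 1 alone, so the promoter printed above lies in the main acetylated stretch of Ttn. In the flank the conditions were alike in breadth (7.13 and 6.25 kb against 6.84 and 7.15 kb), although a region of 1.87 kb 290.4 kb downstream of the start was covered in both FISC libraries and in neither ASC library.

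Nebulin, which runs along the thin filament, showed its change inside the gene. Its end windows were uncovered in all 4 libraries, and its body held 2.61 and 3.50 kb in ASC against 0 in FISC (difference 3.05 kb, SE 0.37, adjusted p = 0.00783). All of that lay in 4 regions shared by the ASC libraries, within 20 kb of the end of the gene with the higher coordinate, and the longest was chr2:52334767-52336176.

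Among the actins, which form the thin filament itself, the skeletal gene Acta1 differed only beyond the gene. The window round its start held 0.67 kb in ASC replicate 2 and 0 in the other 3 libraries, and its body was covered in none. Its flank held 4.28 and 4.72 kb in ASC against 1.76 and 1.71 kb in FISC (difference 2.76 kb, SE 0.34, adjusted p = 0.00153). The main part was chr8:123882440-123885016, centred 11.05 kb downstream of the start with no other gene in it. That region was covered for 2399 and 2577 bases in ASC and 696 and 663 in FISC, with fold enrichments of 25.4 and 23.6 against 4.30 and 5.76. Actc1, the cardiac actin that fetal skeletal muscle also makes, was uncovered in end windows, body and flank in every library.

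The tropomyosins, coiled coils that shield the myosin sites of actin, were broader in ASC at 2 of 3 genes in all 3 places. Tpm1 end windows held 2.76 and 3.43 kb in ASC against 1.73 and 1.29 kb in FISC (difference 1.58 kb, SE 0.28, adjusted p = 0.018). Its body held 8.17 and 9.27 kb against 0.97 and 0.94 kb, the largest body difference of the 39 (7.77 kb, SE 0.51, adjusted p = 0.00478), so that 37.8% of the body was covered in ASC and 4.13% in FISC. A region that includes the start, chr9:67043103-67050352, was covered for 7042 and 7250 bases in ASC and for 2701 and 1962 bases in FISC. Acetylation at Tpm1 was thus present at the start in both conditions and reached into the gene mainly in ASC. Its flank held 5.22 and 5.84 kb against 1.52 and 1.56 kb (difference 3.99 kb, SE 0.39, adjusted p = 0.000756), most of it in chr9:66987969-66992212, a 4.24 kb region 59.1 kb downstream of the start that was in both ASC libraries alone. Taken to 20 kb instead of 50 kb, which leaves that region out, the flank difference of Tpm1 was -0.06 kb.

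Tpm2, the beta-tropomyosin, held 3.09 and 3.41 kb in end windows in ASC against 1.57 and 1.19 kb in FISC, and both ASC values were higher than both FISC values (difference 1.87 kb, SE 0.20, adjusted p = 0.00563). In its body the values were 0.18 and 0.27 kb against 0 (0.22 kb, SE 0.06, adjusted p = 0.0383). The flank of Tpm2 held 9.04 and 8.91 kb against 3.88 and 4.14 kb (4.96 kb, SE 0.57, adjusted p = 0.00116), most of it in a region at the ends of Tln1 and Creb3 (6545 and 6278 bases against 2536 and 2283). The slow gene Tpm3 was uncovered at both gene ends, but a region inside the gene, chr3:90078758-90081488, was covered in all 4 libraries, for 2465 and 2580 bases in ASC and 1985 and 1600 bases in FISC. A second annotated start lies in it, and the promoter window there was covered for 300 bases in either ASC library, 0 in FISC replicate 1 and 192 in FISC replicate 2. Its body breadth, 2.92 and 3.66 kb against 2.45 and 1.60 kb, missed the threshold (adjusted p = 0.0911).

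The 2 leiomodins, which nucleate and lengthen actin filaments, moved in opposite directions. Lmod3 end windows held 1.07 and 1.72 kb in ASC against 0 in FISC (difference 1.40 kb, SE 0.23, adjusted p = 0.014), and its body 0.67 and 0.86 kb against 0 (0.77 kb, SE 0.10, adjusted p = 0.00837). Lmod2 end windows held 0 in ASC against 0.74 and 0.54 kb in FISC (difference -0.64 kb, SE 0.10, adjusted p = 0.013), and its body 0 against 0.97 and 0.98 kb (-0.98 kb, SE 0.08, adjusted p = 0.00488). At both genes the groups did not overlap and the condition with less was at 0 in both places. The FISC signal at Lmod2 was chr6:24599022-24600527, centred 2.00 kb downstream of the start, with fold enrichments of 5.68 and 7.33, and it took up 26.8% of the body together with a smaller region. In the flank Lmod3 had the largest difference of the 39, 17.0 and 20.5 kb against 7.07 and 7.73 kb (11.3 kb, SE 1.54, adjusted p = 0.00202), in windows shared with Arl6ip5 and Uba3. The flank of Lmod2 missed the threshold (2.89 and 3.40 kb against 2.61 and 4.70 kb).

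**Figure D2:**
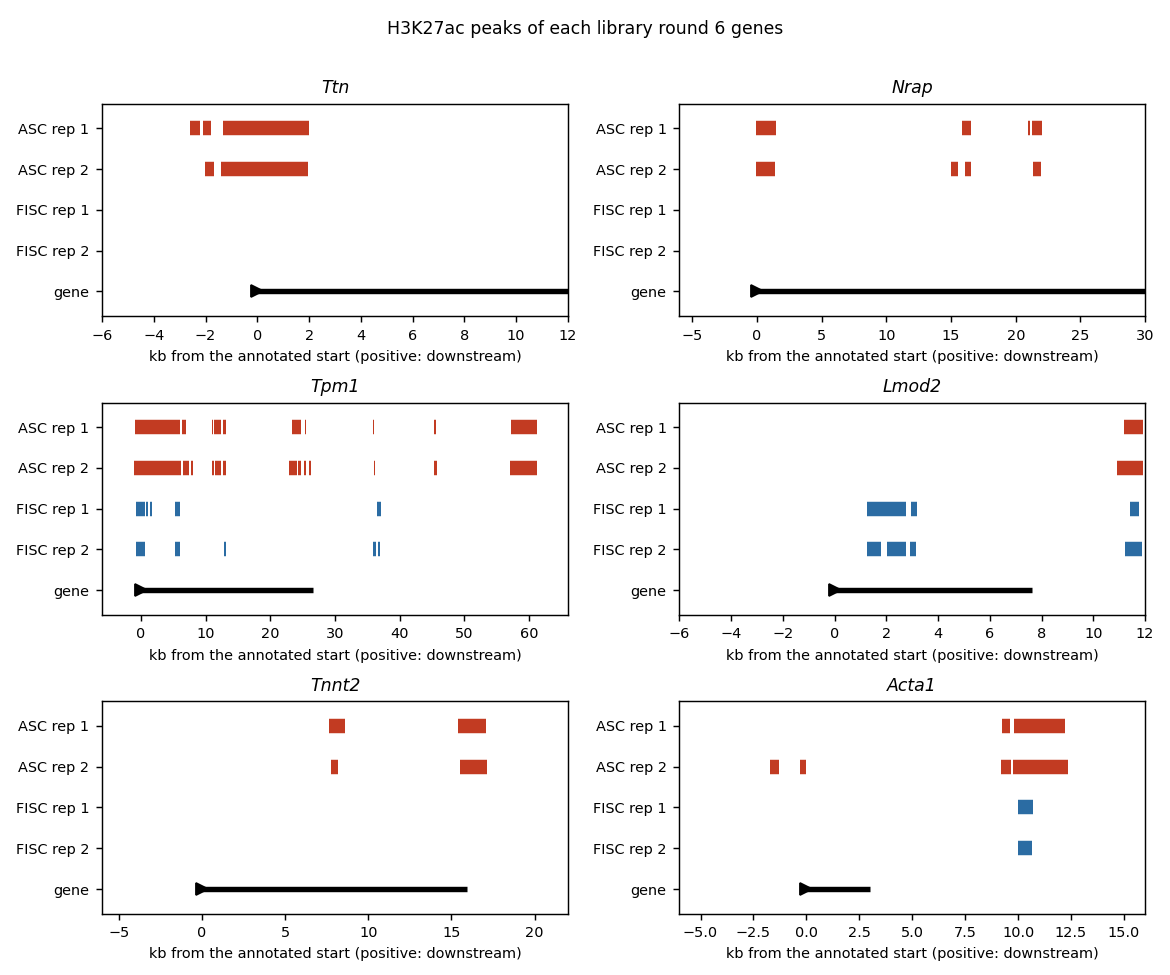
Peaks of each library are drawn as bars against the distance from the annotated start in kb (positive values downstream, the lowest of several starts by coordinate), with the gene as a black line, for Ttn, Nrap, Tpm1, Lmod2, Tnnt2 and Acta1. Red bars are ASC and blue bars FISC. The peaks at Ttn, Nrap and Tnnt2 are in ASC alone, the pair inside Lmod2 in FISC alone, and Tpm1 has bars of both colours at its start with the long ones in red.

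Troponin T ties the troponin complex to tropomyosin. Tnnt2, the cardiac form that is also made in developing skeletal muscle, was broader in ASC in all 3 places. Its end windows held 1.74 and 1.62 kb against 0 (difference 1.68 kb, SE 0.11, adjusted p = 0.00227), its body 0.96 and 0.47 kb against 0 (0.71 kb, SE 0.19, adjusted p = 0.0431) and its flank 1.51 and 2.65 kb against 0.38 and 0 kb (1.89 kb, SE 0.38, adjusted p = 0.00834). The end signal lay at the far end of the gene, chr1:135851698-135853454, centred 15.6 kb downstream of the first start, and the window round the first start was uncovered in every library. The slow form Tnnt1 held 0.71 and 0.45 kb at its ends in ASC against 0.91 and 0.82 kb in FISC, which missed the threshold (adjusted p = 0.147).

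Troponin C binds the calcium. The slow and cardiac Tnnc1 held 1.02 and 0.99 kb at its ends in ASC against 1.07 and 1.09 kb in FISC (difference -0.07 kb, SE 0.11, adjusted p = 0.619), in a window that also holds Nisch. The fast Tnnc2 was uncovered at its ends apart from 0.26 kb in FISC replicate 2. Its flank held 8.77 and 10.7 kb in ASC against 6.11 and 5.88 kb (difference 3.76 kb, SE 0.88, adjusted p = 0.0146). All flank regions of Tnnc2 lay in or near other genes, among them Dnttip1, Ube2c, Snx21 and Zswim3.

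Troponin I holds the complex off until calcium arrives. The slow Tnni1 held 0.38 and 0.48 kb in its body in ASC against 0 in FISC (difference 0.43 kb, SE 0.06, adjusted p = 0.0119) and 11.04 and 13.9 kb against 6.95 and 6.09 kb in its flank (5.93 kb, SE 1.18, adjusted p = 0.00805). At its ends the values were 0.20 and 0.23 kb against 0 (adjusted p = 0.0785), from a different peak in each ASC library. Tnni1 and Tnnt2 lie 25.3 kb apart, so the regions of Tnnt2 count in the flank of Tnni1 and these results share bases. The fast Tnni2 held 1.81 and 1.13 kb at its ends in ASC against 0.36 and 0.38 kb in FISC (difference 1.10 kb, SE 0.24, adjusted p = 0.0288), mostly at the end shared with Syt8, and its difference was -0.37 kb once lists were cut to equal covered length. Its flank missed the threshold (18.4 and 21.6 kb against 15.4 and 14.0 kb, adjusted p = 0.05001). The cardiac Tnni3 was uncovered in end windows and body in all libraries, and so short a body (0.41 kb) leaves little to cover.

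In the thick filament, the essential and regulatory light chains sit on the myosin neck. Myl1, the fast essential chain, held 1.14 and 1.15 kb at its far end in ASC against 0 in FISC (difference 1.15 kb, SE 0.09, adjusted p = 0.00298), with the start uncovered. Its body held 0.54 and 0.74 kb against 0 (0.64 kb, SE 0.09, adjusted p = 0.0113), and its flank 2.27 and 3.17 kb against 0.24 and 0 kb (2.60 kb, SE 0.32, adjusted p = 0.0015). Myl1 therefore had a string of ASC peaks downstream of its start with almost nothing in FISC.

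Mylpf, the fast regulatory chain, held 2.56 and 3.47 kb at its end with the lower coordinate in ASC against 1.61 and 1.86 kb in FISC (difference 1.28 kb, SE 0.33, adjusted p = 0.0436), in a window shared with Tbc1d10b. The regions of Mylpf there were centred 0.84 to 4.07 kb upstream of its RefSeq start, and the promoter itself was uncovered in all libraries. Myl4, the embryonic and atrial essential chain, was covered inside the gene in all 4 libraries. Its body held 5.61 and 6.02 kb in ASC and 4.69 and 4.15 kb in FISC, which missed the threshold (adjusted p = 0.0568), and its flank 1.01 and 2.18 kb against 0.59 and 0 kb passed it (1.30 kb, SE 0.40, adjusted p = 0.0375). All flank breadth of Myl4 in ASC lay in or near Itgb3. The strongest Myl4 region lies at an internal start shared with Cdc27, where fold enrichments were 47.2 and 42.0 in ASC and 23.4 and 24.1 in FISC. The slow and cardiac chains Myl2 and Myl3 were uncovered in end windows and bodies in all libraries, and their flanks missed the threshold.

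The myosin-binding proteins C and H brace the thick filament. Mybph, the H protein, held 0.91 and 1.79 kb within 2 kb of its start in ASC against 0 in FISC (difference 1.35 kb, SE 0.30, adjusted p = 0.0295). It was the single gene called in both directions, because its flank held 1.25 and 1.46 kb against 2.53 and 2.06 kb (-0.94 kb, SE 0.26, adjusted p = 0.0257), which became 0.48 kb with stricter peaks (−log10 q of at least 5) and 0.19 kb with a limit of 100 kb. The fast Mybpc2 held 0 at its ends in ASC against 0.29 and 0.28 kb in FISC (-0.29 kb, SE 0.07, adjusted p = 0.0419) from a single region at the end of Spib, a lymphoid transcription factor gene, and with a 5 kb window the sign turned (0.09 kb). The slow Mybpc1 was covered in all libraries at 1.05 and 1.81 kb against 1.14 and 1.35 kb (adjusted p = 0.637).

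Of the 3 M-band genes, 2 were broader inside the gene in ASC. Myom2, which encodes the myomesin of fast fibres and heart, held 2.56 and 2.46 kb in its body in ASC against 0.29 and 0.75 kb in FISC (difference 1.99 kb, SE 0.24, adjusted p = 0.00797). All of it was 1 region, chr8:15071433-15074103, with fold enrichments of 23.4 and 22.3 against 2.51 and 5.50, and the end windows of Myom2 were uncovered. Myom1 held 3.49 and 4.52 kb in its body against 1.74 and 2.43 kb (1.92 kb, SE 0.51, adjusted p = 0.0433), which was -2.08 kb in lists of equal covered length. Its flank held 14.9 and 16.015 kb against 7.83 and 7.74 kb (7.67 kb, SE 1.07, adjusted p = 0.00222), where the light chain genes Myl12a and Myl12b lie, while its end windows barely differed (difference 0.04 kb, SE 0.16). Myom3 was uncovered in end windows and body in all libraries.

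At the Z disc, the Xin repeat protein Xirp1, which binds actin, had the largest end-window difference of the 39. Its end windows held 6.70 and 7.09 kb in ASC against 1.67 and 2.61 kb in FISC (difference 4.75 kb, SE 0.37, adjusted p = 0.0031). The end with the higher coordinate was covered in ASC alone, by chr9:120020933-120025414 (4252 and 4288 bases, fold enrichments of 21.9 and 22.8), and the other end in all 4 libraries. Body and flank of Xirp1 were also broader in ASC, at 0.66 and 1.16 kb against 0 (0.91 kb, SE 0.20, adjusted p = 0.0269) and at 12.2 and 14.8 kb against 7.99 and 8.44 kb (5.30 kb, SE 1.22, adjusted p = 0.0137).

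Nrap, a nebulin-related protein of assembling myofibrils, held 1.51 kb within 2 kb of its start in either ASC library against 0 in FISC (difference 1.51 kb, SE 0.10, adjusted p = 0.00227). Its body held 1.93 and 1.61 kb against 0 (1.77 kb, SE 0.17, adjusted p = 0.00544). As at Ttn, the start, chr19:56388581-56390142, went from uncovered to covered in both libraries, with fold enrichments of 9.92 and 9.32, while the flank hardly differed (0.10 kb, SE 0.24).

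The alpha-actinins crosslink actin at the Z disc. Actn2 was uncovered at its ends and held 2.06 and 2.51 kb in its body in ASC against 0.93 and 0.35 kb in FISC (difference 1.64 kb, SE 0.32, adjusted p = 0.021), a sign that turned in lists of equal covered length (-0.64 kb). Actn3, the fast-fibre form, held 3.39 and 3.60 kb at its ends against 2.05 and 2.06 kb (1.44 kb, SE 0.15, adjusted p = 0.00529), all at the end shared with Zdhhc24, and 0.15 and 0.17 kb in its body against 0 (0.16 kb, SE 0.04, adjusted p = 0.0441). The values of Actn3 thus lay almost wholly at the end where Zdhhc24 also lies.

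The myozenins, which link actinin to calcineurin, split by fibre type. The fast Myoz1 held 0 in its body in ASC against 0.58 and 0.32 kb in FISC (difference -0.45 kb, SE 0.11, adjusted p = 0.037), in chr14:20650826-20651445, with 0 against 0.28 and 0.20 kb at its ends (adjusted p = 0.0697). The slow Myoz2 held 0.60 and 0.64 kb in its body in ASC against 0 in FISC (0.62 kb, SE 0.06, adjusted p = 0.00588) and was uncovered at its ends. Both genes were thus at 0 in 1 condition, in opposite ones.

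Among the other Z-disc genes, Csrp3 (muscle LIM protein) was uncovered in end windows and body. Its flank held 8.79 and 9.30 kb in ASC against 0.69 and 0.87 kb in FISC (difference 8.27 kb, SE 0.47, adjusted p = 0.000453). Of this, 5.24 kb was a region at an end of E2f8, a cell cycle factor gene, and with bases in or near other genes left out the difference was 0.84 kb. Myot, which encodes myotilin, held 2.65 and 3.94 kb in its flank against 1.63 and 1.35 kb (1.81 kb, SE 0.46, adjusted p = 0.0192), with end windows and body uncovered. Most of the flank breadth of Myot lay at an end of Dcp2, in chr18:44379699-44382094 (1795 and 2396 bases against 1033 and 1346). The Myot flank regions found in ASC but in no FISC list also lay in or near Dcp2. Ldb3 passed the threshold nowhere.

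Desmin, the intermediate filament protein of muscle, was broadly acetylated in all libraries, at 4.38 and 4.91 kb in end windows in ASC and 5.12 and 4.59 kb in FISC (difference -0.21 kb, SE 0.31, adjusted p = 0.625). Its short body held 0.02 and 0.04 kb in ASC against 0.43 and 0.38 kb in FISC (-0.38 kb, SE 0.06, adjusted p = 0.0112). Rbm24, which directs muscle splicing, was broader in ASC at its ends (2.55 and 2.80 kb against 2.03 and 1.96 kb; 0.68 kb, SE 0.15, adjusted p = 0.0313), although that difference was -0.36 kb after division by covered length. The body of Rbm24 held 0.65 and 0.97 kb against 0 (0.81 kb, SE 0.14, adjusted p = 0.0156) and its flank 1.51 and 1.32 kb against 0 (1.41 kb, SE 0.14, adjusted p = 0.000756). Ckm, the muscle creatine kinase and a classic target of MyoD, was uncovered in end windows and body in all 4 libraries, and its flank differed by 0.40 kb (SE 0.45, adjusted p = 0.478).

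Over the 39 genes, bodies were broader in ASC at 15 and narrower at 3 (Lmod2, Myoz1 and Des) of 24 tested. The background for bodies was 12.8% of all genes for broader and 2.90% for narrower, against 38.5% and 7.69% of the 39. Among the 6528 genes tested it was 42.8% and 9.73%, against 15 and 3 of the 24 members tested. The ASC values lay above the FISC values with no overlap at 19 (19.1% of all genes) and below at 4 (5.03%). The median gene length of the 39, 16.7 kb, was close to the 17.2 kb of all genes. Division by covered length gave 12 broader and the same 3 narrower, against 10.7% and 6.1% of all genes. Equal covered length gave 3 broader (Tpm1, Lmod3 and Myom2) and 5 narrower, against 4.53% and 7.3%, with the share of broader among genome-wide calls at 81.48%, 63.79% and 38.3% in turn. On the main scale, the broader bodies of Neb, Tpm2, Lmod3, Tnnt2, Tnni1, Myl1, Actn3, Myoz2, Xirp1, Nrap and Rbm24 were at 0 in both FISC libraries. The narrower bodies of Lmod2 and Myoz1 were at 0 in both ASC libraries. Each of these entered the test only through 1 condition and leaves it when a library of that condition is dropped. With each library left out in turn, fewer bodies were called. In flanks 14 of 38 tested were broader, or 35.9% of the 39 against 33.6% of all genes (46.0% of 15985 tested), so the flanks stood near the background. The 1 narrower flank compares with 4.17% of all genes (5.71% of those tested). With a library left out, the number of flanks called broader rose or fell. In flanks with all 4 libraries, no overlap was seen with ASC above at 27 (50.2% of all genes) and below at 4 (8.11%). There the genome-wide share of broader calls was 88.95%, then 44.07% after division by covered length and 46.57% at equal covered length, with 10 and 9 of the 39 broader (17.9% and 12.3% of all genes) and 16 and 7 narrower (22.7% and 14.1%).

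The tested members had a median difference of 1.12 kb in end windows, where the median tested gene had 0.30 kb, of 0.74 kb in bodies (0.53 kb) and of 1.40 kb in flanks (0.96 kb). A gene at 0 in 1 condition enters these medians only through the other condition. Over all 39 genes the medians were 0.0 kb in end windows, 0.16 kb in bodies and 1.38 kb in flanks. Over all 21887 genes they were 0.0, 0.0 and 0.37 kb. Counted by gene, 23 were called as broader only, 4 as narrower only, 1 in both directions and 11 in no place, and 7 (Tpm1, Tpm2, Lmod3, Tnnt2, Myl1, Xirp1 and Rbm24) were broader in all 3 places. Counts over the 3 places together were not made for all genes, so these have no background. Place by place, 15.6%, 12.8% and 33.6% of all genes were called broader in end windows, bodies and flanks. Uncovered in end windows and body in every library were 8 genes, or 20.5% against 32.4% of all genes: Actc1, Tnni3, Myl2, Myl3, Myom3, Myot, Csrp3 and Ckm.

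**Figure D3:**
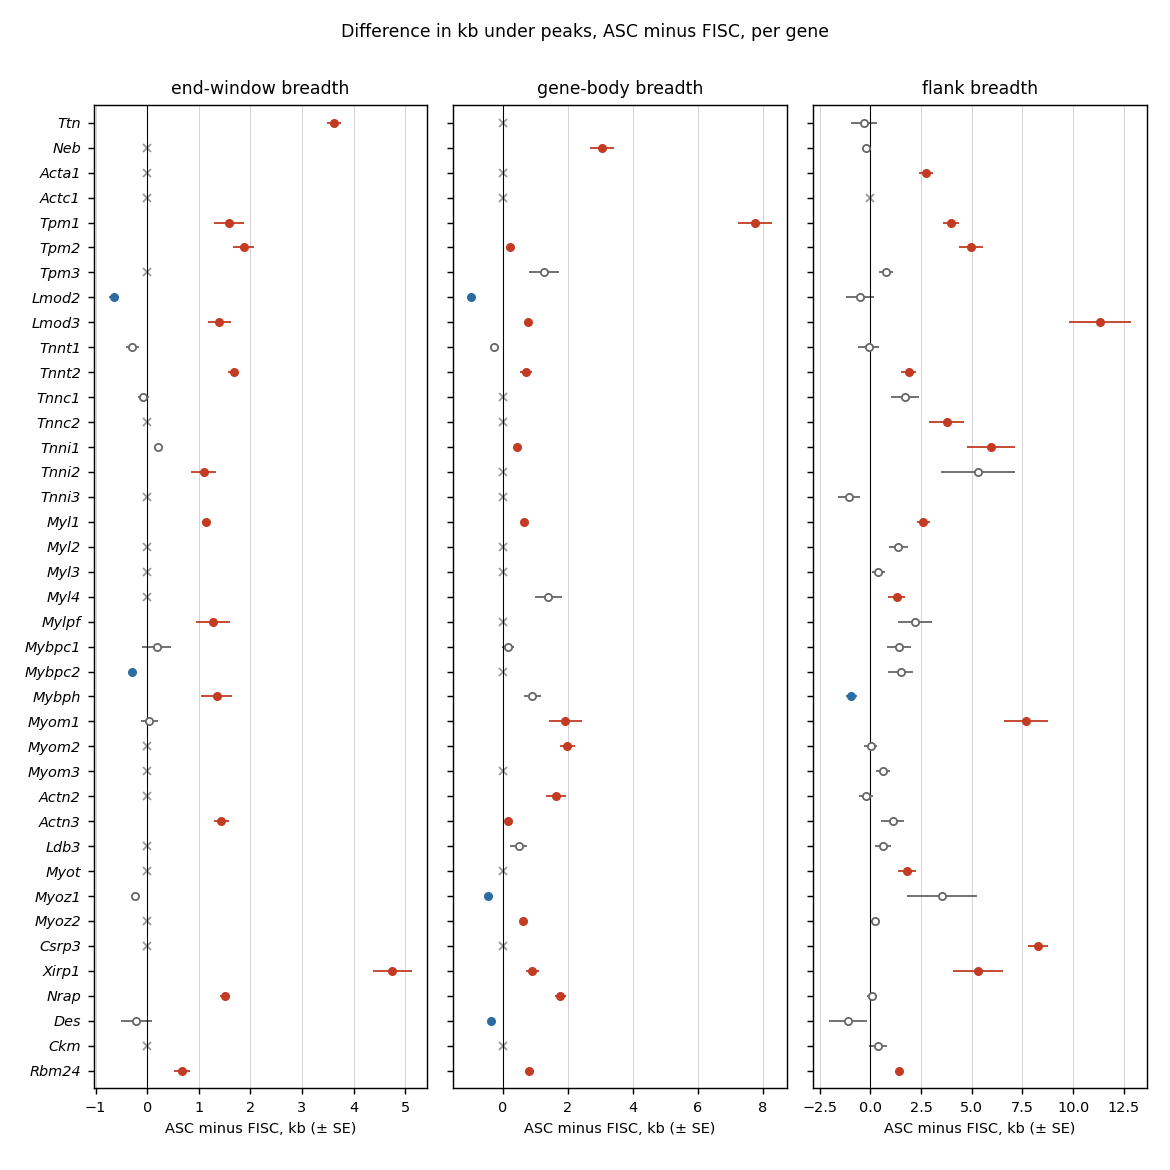
Differences in breadth, ASC minus FISC in kb with their SE, are plotted for each of the 39 genes in end windows, bodies and flanks (red called broader in ASC, blue called narrower, open grey tested without a call, cross not tested). Red points outnumber blue ones in all 3 panels (13, 15 and 14 against 2, 3 and 1), and Xirp1, Tpm1 and Lmod3 lie farthest right in turn.

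Compared by isoform class, the fast genes were called broader in end windows at 4 of 8 (Tnni2, Myl1, Mylpf and Actn3) and narrower at Mybpc2, where 15.6% and 2.13% of all genes were called. The slow genes were called at 0 of 9 with 4 tested and 5 uncovered (1 of the 4, Tnni1, had an unadjusted p below 0.05). The developmental or cardiac genes were called at 1 of 4, Tnnt2, and 3 were uncovered. These counts changed with the scale. Divided by covered length, the fast Tnni2 and Myl1 and Tnnt2 were broader, and the fast Mybpc2 and Myoz1 and slow Tnnt1 and Tnnc1 narrower. At equal covered length the fast Actn3 was broader, and the fast Tnni2, Mybpc2 and Myoz1 and slow Tnnt1 and Mybpc1 narrower. In bodies, 3 of 8 fast, 2 of 9 slow and 1 of 4 developmental or cardiac genes were called broader, where 12.8% of all genes were. The fast Myoz1 was the only narrower body of the classes, where 2.90% of all genes were narrower. In flanks, 2 of 8, 2 of 9 and 2 of 4 were broader in the same order, where 33.6% of all genes were, and 0 were narrower, against 4.17%. Summed over end windows and body, the ASC values did not overlap the FISC values and lay above them at 5 of 8 fast, 3 of 9 slow and 2 of 4 developmental or cardiac genes, and below at 2, 2 and 0, where 42.0% of all genes lay above and 7.8% below. The summed breadth of the 8 fast genes was 12.2 and 12.7 kb in ASC against 5.46 and 6.11 kb in FISC. For the 9 slow genes it was 7.46 and 9.26 kb against 6.64 and 5.60 kb, and for the 4 developmental or cardiac genes 8.31 and 8.11 kb against 4.69 and 4.15 kb, of which Myl4 alone gave the FISC values. The difference between classes was not tested. Of the 4 fast genes called broader in end windows, 3 (Tnni2, Mylpf and Actn3) shared the covered end with another gene.

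Within families the classes did not follow a single order. For troponin I, the slow gene was broader in ASC in its body, upstream of its RefSeq starts, and the fast gene at its ends. The cardiac troponin I gene was uncovered. Troponin T was broader at the cardiac and developmental Tnnt2, with no call at the slow Tnnt1, and for troponin C no end or body was called at either gene. Among essential light chains the fast Myl1 was broader, Myl4 was covered in both conditions and the slow Myl3 uncovered. Myozenins ran the other way, with the slow gene broader and the fast gene narrower.

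**Figure D4:**
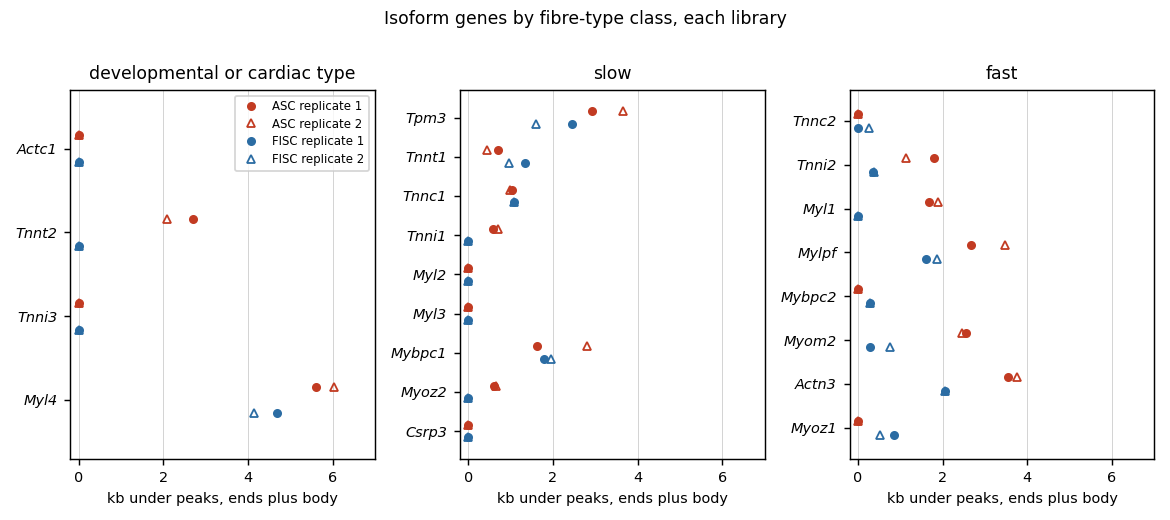
Kb under peaks in end windows plus body is plotted on the horizontal axis for the 21 genes assigned to a class, in panels for developmental or cardiac, slow and fast genes, with 1 point for each library (red ASC, blue FISC, filled circle replicate 1, open triangle replicate 2). Myl4 is high in all 4 libraries, Tnnt2 and Myl1 have FISC points at 0, and Myoz1 and Mybpc2 have ASC points at 0.

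Taken as regions, the union of the 4 lists held 359 regions in or within 50 kb of the 39 genes. Present in the 2 ASC lists alone were 86 (23.96%), and in the 2 FISC lists alone 24 (6.69%), against 19.9% and 7.30% of the 72585 regions of the genome. By place, a region is counted once for each gene it lies at, which gave 371 pairs of gene and region. In ASC alone were 21 of 60 body regions (35.0%, against 20.4% of those of all genes), 14 of 52 in end windows (26.9%, against 8.2%) and 56 of 259 in flanks (21.6%, against 16.9%). In FISC alone were 2 in bodies (3.3%, against 8.6%), 3 in end windows (5.8%, against 2.9%) and 19 in flanks (7.3%, against 5.9%). These differences were not tested. With lists cut to equal covered length the counts were 9 in ASC alone and 63 in FISC alone (4.0% and 28.0%), and the whole genome turned in the same way (3.4% and 28.0%).

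Other genes of the sarcomere and its assembly were read from lists that hold no member. These lists were chosen with earlier results of these data known, so their shares are descriptions and not independent support. Of 30 further sarcomere and Z-disc genes, 8 (26.7%) were broader in end windows and 4 (13.3%) narrower, where 15.6% and 2.13% of all genes were. In flanks 7 were broader and 7 narrower (23.3% each, against 33.6% and 4.17%). Tnnt3, the fast troponin T, held 2.03 and 2.32 kb in ASC against 0 and 0.06 kb in FISC (difference 2.14 kb, SE 0.14, adjusted p = 0.00238). The flank of Tnnt3 went the other way, with 15.8 and 19.1 kb in ASC against 28.7 and 27.96 kb in FISC (-10.9 kb, SE 2.03, adjusted p = 0.00640). Tcap, the titin cap, held 0 against 1.65 and 1.85 kb (-1.75 kb, SE 0.12, adjusted p = 0.00245). Myh2, a fast myosin heavy chain of mature fibres, held 0.76 and 0.81 kb against 2.51 and 2.46 kb (-1.70 kb, SE 0.12, adjusted p = 0.0026).

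Of 11 sarcomere assembly genes, 6 (54.5%, against 15.6% of all genes) were broader and 0 narrower in end windows by limma (also 0 narrower at an unadjusted p below 0.05). Klhl41 held 2.04 and 2.43 kb against 0 (2.23 kb, SE 0.16, adjusted p = 0.0027). Klhl40, a kelch protein that stabilises nebulin and Lmod3, held 2.47 and 2.92 kb against 0.56 and 0.44 kb (2.20 kb, SE 0.19, adjusted p = 0.00371). Smyd1, a methyltransferase and myosin partner, held 1.30 and 2.17 kb against 0 (1.74 kb, SE 0.29, adjusted p = 0.0154). Of 16 genes of calcium release and uptake, bodies were broader at 5 (31.25%, against 12.8% of all genes). They were narrower at 3, Cacnb1, Atp2a1 and Atp2a2 (18.75%, against 2.90%). Flanks were broader at 9 (56.25%, against 33.6%) and narrower at 1 (6.25%, against 4.17%). In end windows 5 (31.2%) were broader and 1 (6.25%) narrower, against the same 15.6% and 2.13%. The first of these by size were Cacng1, a subunit of the calcium channel (3.40 and 3.39 kb against 1.22 and 1.04 kb, adjusted p = 0.00226), the junctophilin Jph2 (2.98 and 3.03 kb against 1.12 and 0.68 kb, adjusted p = 0.00392) and the release channel Ryr1 (1.56 and 2.16 kb against 0.40 and 0 kb, adjusted p = 0.012).

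Mature muscle fibres use many of the same genes, and their markers were covered in both conditions. Of 12, 2 were broader in end windows (Eno3 and Ryr1), 2 narrower (Myh2 and Mb) and 4 at 0 in all libraries (Myh4, Myh7, Pvalb and Ampd1), and their summed breadth was 14.04 and 16.02 kb in ASC against 14.3 and 14.1 kb in FISC. The broader share, 16.7%, was near the 15.6% of all genes, and the narrower share was also 16.7%, against 2.13%. In bodies 2 fibre markers were broader (Ryr1 and Eno3) and 2 narrower (Myh1 and Atp2a1), 16.7% each against 12.8% and 2.90% of all genes. In flanks 3 were broader (Ryr1, Pygm and Ampd1) and 3 narrower (Myh1, Myh2 and Myh4), 25.0% each against 33.6% and 4.17%. The part of fibre chromatin in either condition was not tested. Smooth muscle and pericyte markers, which bear on Des, summed to 6.79 and 8.42 kb against 8.81 and 8.41 kb, with 1 of 9 broader, 3 narrower and Cnn1, Rgs5 and Kcnj8 at 0. Endothelial markers summed to 1.22 and 1.79 kb against 2.37 and 2.56 kb with 0 of 8 called (1, Tek, at an unadjusted p below 0.05) and Pecam1, Cdh5, Emcn and Tie1 at 0. Fibro-adipogenic markers summed to 6.28 and 7.54 kb against 6.25 and 6.26 kb with 1 of 8 broader, 2 narrower and Pdgfra, Dcn, Col1a1 and Lum at 0. Myeloid markers summed to 3.62 and 5.41 kb against 2.60 and 2.36 kb with 0 of 8 called (1, Spi1, at an unadjusted p below 0.05) and Ptprc, Itgam, Adgre1, Lyz2 and Tyrobp at 0 in all libraries. These sums and zeros are for end windows. In bodies 2 smooth muscle, 1 endothelial, 1 fibro-adipogenic and 0 myeloid markers (1 at an unadjusted p below 0.05) were broader by limma, where 12.8% of all genes were, and in flanks 5, 2, 1 and 2, where 33.6% were. The endothelial one was Cdh5, whose body held 3.39 and 3.91 kb in ASC against 0 in FISC (difference 3.65 kb, SE 0.27, adjusted p = 0.00478), and the body of Pecam1 held 3.49 and 3.88 kb against 4.44 and 4.85 kb. Narrower bodies numbered 1 smooth muscle, 0 endothelial, 1 fibro-adipogenic and 0 myeloid, where 2.90% of all genes were narrower. Narrower flanks numbered 1, 0, 2 and 0 in the same order, where 4.17% of all genes were narrower. The part of such cells in the results for sarcomere genes was not tested.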

How the data were processed

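H3K27ac libraries were made by ChIPmentation, in which antibody-bound chromatin is tagmented, per the labels' protocols. The submitters' processing notes name bcl2fastq 2.19, BWA, Picard and MACS2 and the build mm10. Settings, and whether inputs entered peak calling, are not stated. Each deposited list gives peak positions, fold enrichment (a ratio of summit reads to local background), −log10 p and −log10 q values and a score, all by the authors. The score was the integer part of 10 times −log10 q throughout, and 0 peaks overlapped within a list.

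Bases under peaks were summed per gene on RefSeq gene spans (GRCm38.p6) in end windows (2 kb either side of each gene end), body and flank (to 50 kb). Each gene with peaks in 2 or more libraries entered a limma 3.58.1 fit (eBayes with trend, linear kb, no replicate term) with Benjamini-Hochberg adjustment over every gene in the fit. The fit was tried on simulated end-window values with the same spread for all genes, drawn round each gene's mean over the libraries. That setting did not imitate genes at 0 in a whole condition, so it has no bearing on calls at such genes. Deviations of libraries with equal replicate numbers correlated at -0.02, 0.06 and -0.12 in end windows, bodies and flanks. With 2 libraries in each condition, these values cannot show whether equal numbers share a batch.

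The members and lists were chosen with earlier results of these data known. Values per library are given for every member called anywhere and for further members chosen by name, and for the 3 largest called end-window differences of each pathway list, Tnnt3 first. Alternatives were stricter peaks, equal or divided covered length, other windows and limits, a looser gene filter, a replicate block and leaving out each library.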

Additional observations from a re-analysis of the deposited data

How the results depend on the processing

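Of 73 differences of single genes followed, 48 were called, and over 748 refits 579 kept direction and side of the threshold, 106 lost the call, 46 gained one and 17 turned. Another 37 changed sign with no call on either side. Turned after division by covered length were Myom1 (-1.17 kb) and Rbm24 (-0.36 kb) in end windows and the flanks of Tnni2 (-2.49 kb), Mylpf (-1.43 kb), Mybpc2 (-1.62 kb), Myom2 (-1.35 kb), Myoz2 (-0.67 kb), Nrap (-0.80 kb) and Ckm (-1.47 kb). At equal covered length Tnni2 ends (-0.37 kb), Myom1 body (-2.08 kb), Actn2 body (-0.64 kb) and Myom2 flank (-1.14 kb) turned. So did Mybpc2 ends with a 5 kb window (0.0885 kb), Tpm1 flank with a 20 kb limit (-0.064 kb) and Mybph flank with −log10 q of at least 5 (0.48 kb) or a 100 kb limit (0.19 kb). The cause was not tested.

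In brackets are the genes called over the whole genome, out of those tested. Members broader at their ends, 13 (3419 of 12924), became 5 at equal covered length (1908 of 12103). They became 8 with a 1 kb window (1912 of 12349) and 6 by the annotated start only (2771 of 10294). The annotated start leaves out the 8 members without a promoter entry. Among those are Lmod3, Tnni2, Actn3 and Xirp1 of the 13, which could not be called there. Narrower ends, 2 (467 of 12924), became 0 with −log10 q of at least 5 (378 of 12340). They became 7 at equal covered length (1580 of 12103) and 7 when divided by it (4735 of 12924). The narrower count was 1 with a 1 kb window (226 of 12349) or with genes covered in at least 1 library (429 of 13575). With the replicate block it was also 1 (432 of 12924). Narrower ends numbered 3 with a 5 kb window (652 of 13924). Bodies broader, 15 (2794 of 6528), became 3 at equal covered length (992 of 5064). Narrower bodies, 3 (635 of 6528), became 5 there (1598 of 5064) and 0 more than 5 kb from both ends (543 of 4912). They were 2 with −log10 q of at least 5 (423 of 5616) and 2 with genes covered in at least 1 library (540 of 7591). Bodies broader were 10 more than 5 kb from both ends (2324 of 4912). Flanks broader, 14 (7351 of 15985), became 9 at equal covered length (2698 of 14678) and 21 with a 100 kb limit (9966 of 17983). Flanks narrower, 1 (913 of 15985), became 0 with −log10 q of at least 5 (691 of 15280) or a 100 kb limit (1016 of 17983). They became 7 at equal covered length (3096 of 14678) and 16 divided by it (4965 of 15985). The narrower count was 2 with a 20 kb limit (746 of 11834) or without bases in or near another gene (789 of 8036). Regions in ASC alone, 86, became 9 at equal covered length, and in FISC alone, 24, became 63 there and 11 with −log10 q of at least 5.

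Leaving out each library in turn gave 6 to 7 broader and 0 to 1 narrower ends, 2 to 4 and 0 to 1 bodies, 11 to 22 and 0 to 1 flanks, and 96 to 141 regions in ASC alone and 25 to 50 in FISC alone. Of the 48 calls, 26 had a value in all 4 such fits and 11 passed in all 4; a gene covered in 1 condition leaves the fit with either library of that condition, by the filter's construction. Numbers shared by replicates have no stated meaning, and with the replicate block the called counts were 13 and 1, 14 and 3, and 17 and 1. Over all genes tested they were 3001 and 432 of 12924, 2746 and 593 of 6528, and 7412 and 983 of 15985. The crossed block, chosen after seeing the data, gave 19 and 1 flanks, where 7969 and 1061 of 15985 genes tested were called. Peak calling limits low breadth, and the depth behind it is known only as an estimate.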
